A study of Mus musculus with 14 samples.

Results

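RUNX1 peaks that were called in wild-type (WT) erythroblasts alone, at places without a GATA2 peak, numbered 1650 of 110132 union sites. They were chosen by merging the peaks of the 4 GATA2 and RUNX1 lists wherever peaks overlapped by 1 bp or more, and by keeping the sites that held a peak of the WT RUNX1 list and of no other list. The choice therefore rests on the RUNX1 and GATA2 peak calls themselves, and the absence of a knockout (KO) RUNX1 peak at these sites is a condition of the choice, not a result. Chd7 knockout G1ER cells and WT G1ER cells were compared. G1ER is a mouse erythroblast line that lacks GATA1 and carries a GATA1 fused to the estrogen receptor ligand-binding domain, so that estradiol starts its maturation. Each genotype gave 1 GATA2 library, 1 RUNX1 library and 2 replicates of RNA polymerase II phosphorylated at serine 2 (S2P), and input chromatin made up 6 of the 14 samples. Both genotypes were grown with erythropoietin and stem cell factor. The labels call the KO cells only a CHD7 knockout and give neither the allele nor the number of clones. They name estradiol for a differentiation assay of 48 hours and do not say whether the cells used for chromatin had received it.

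RUNX1 is a transcription factor of blood stem and progenitor cells that binds sequences around TGTGGT as a heterodimer with CBFβ. GATA2 is the GATA factor of immature blood cells and often shares enhancers with RUNX1. CHD7 is an ATP-dependent chromatin remodeler, and the series title places it together with RUNX1 as a brake on haematopoietic differentiation. Phosphorylation of serine 2 in the polymerase tail marks polymerase that is elongating through gene bodies.

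For 89 of the sites the stretch of 50 bp on either side of the peak summit lay inside a promoter of the RefSeq table (GRCm38.p6), and 8 of these windows are shown. Lca5 has the most fragments of the 1621 sites whose local background was at most 100 fragments. H2-T22, Peg3 (a site of 27 fragments between Peg3 and Usp29), Frmd5 and Lgmn are among the strongest sites at gene ends, and Adgrg5, Mfge8 and Lck hold a RUNX word. Each window is printed 5′ to 3′ on the strand of the named gene. Capitals mark the RUNX words TGTGGT and also TGTGGC, the GATA words AGATAA and also TGATAA, and the word CCAAT, each on either strand.
Lca5, chr9:83441114-83441214, minus strand: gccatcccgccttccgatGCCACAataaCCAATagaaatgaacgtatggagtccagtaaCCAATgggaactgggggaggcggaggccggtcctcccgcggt
H2-T22, chr17:36042754-36042854, minus strand: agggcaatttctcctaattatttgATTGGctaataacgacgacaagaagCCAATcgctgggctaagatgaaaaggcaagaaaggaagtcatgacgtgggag
Peg3, chr7:6730483-6730583, minus strand: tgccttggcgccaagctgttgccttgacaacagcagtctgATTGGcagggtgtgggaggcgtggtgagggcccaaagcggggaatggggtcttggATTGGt
Frmd5, chr2:121807096-121807196, minus strand: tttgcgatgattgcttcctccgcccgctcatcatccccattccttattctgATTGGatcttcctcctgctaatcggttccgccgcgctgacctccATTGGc
Lgmn, chr12:102439714-102439814, minus strand: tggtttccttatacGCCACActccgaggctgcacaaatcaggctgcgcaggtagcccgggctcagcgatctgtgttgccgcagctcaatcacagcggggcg
Adgrg5, chr8:94923592-94923692, plus strand: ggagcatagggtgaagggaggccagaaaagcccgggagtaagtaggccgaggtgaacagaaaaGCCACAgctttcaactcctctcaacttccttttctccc
Mfge8, chr7:79149083-79149183, minus strand: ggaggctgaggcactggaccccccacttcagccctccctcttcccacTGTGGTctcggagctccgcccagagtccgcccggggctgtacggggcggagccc
Lck, chr4:129558365-129558465, minus strand: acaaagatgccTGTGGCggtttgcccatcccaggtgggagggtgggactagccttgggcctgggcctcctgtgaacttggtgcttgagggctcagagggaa

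RUNX words were found in 16 of the 89 windows, or 18.0% (exact Clopper-Pearson 95% interval 10.6 to 27.5). The share was 10.0% of 3774 windows at RUNX1 sites without GATA2 in both genotypes, 9.96% of 502 at sites of KO cells alone, and 12.3% of the middle stretches of equal length in all 32851 promoters. The interval at the WT-only sites contains the value of all promoters and overlaps the interval at the sites of both genotypes. With 100 bp on either side the share was 27.7% of 47 sites, against 19.6% of 2263 sites of both genotypes and 22.5% of all promoters. A GATA word was present in 1 of the 89 windows, or 1.12%, against 1.09% at sites of both genotypes and 6.95% of all promoters. The RUNX word had its centre within 20 bp of the summit in 7 windows, among them Mfge8, which encodes a secreted bridging protein of apoptotic cell uptake. CCAAT, which was added to the search after the sequences had been seen, stood in 19.1% of the windows (11.5 to 28.8), against 34.8% at sites of both genotypes and 18.2% of all promoters. A word is a description of these letters, and its absence says nothing of binding.

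The sites were weak. Their height is the whole number of fragments at the summit, worked out for each peak from its fold and p. The sites held 7 to 286 fragments, with a median of 19 and quartiles of 15 and 24. The median fold over local background was 4.42, the median −log10 q was 5.92 and the median width was 170 bp. RUNX1 sites without GATA2 in both genotypes had a WT median of 45 fragments and a median −log10 q of 17.3. Sites of KO cells alone had a KO median of 22 fragments, and WT-only sites with GATA2 in both genotypes had a median of 19. These are values of the readout that chose the sites, and they are given without a test.

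The share of WT-only sites among the WT RUNX1 sites without GATA2 (the WT-only sites together with those of both genotypes) was lower at stronger summits. Among sites of local background up to 100 fragments they were 68.7% of the sites of 7 to 14 fragments, 49.2% at 15 to 19, 30.7% at 20 to 24, 12.6% at 25 to 34 and 1.33% at 35 or more. For the whole list, 3884 of 28952 WT RUNX1 peaks had no overlapping KO RUNX1 peak, which is 13.4%. That call is the rule's own, so nothing is read from it.

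**Figure D1:**
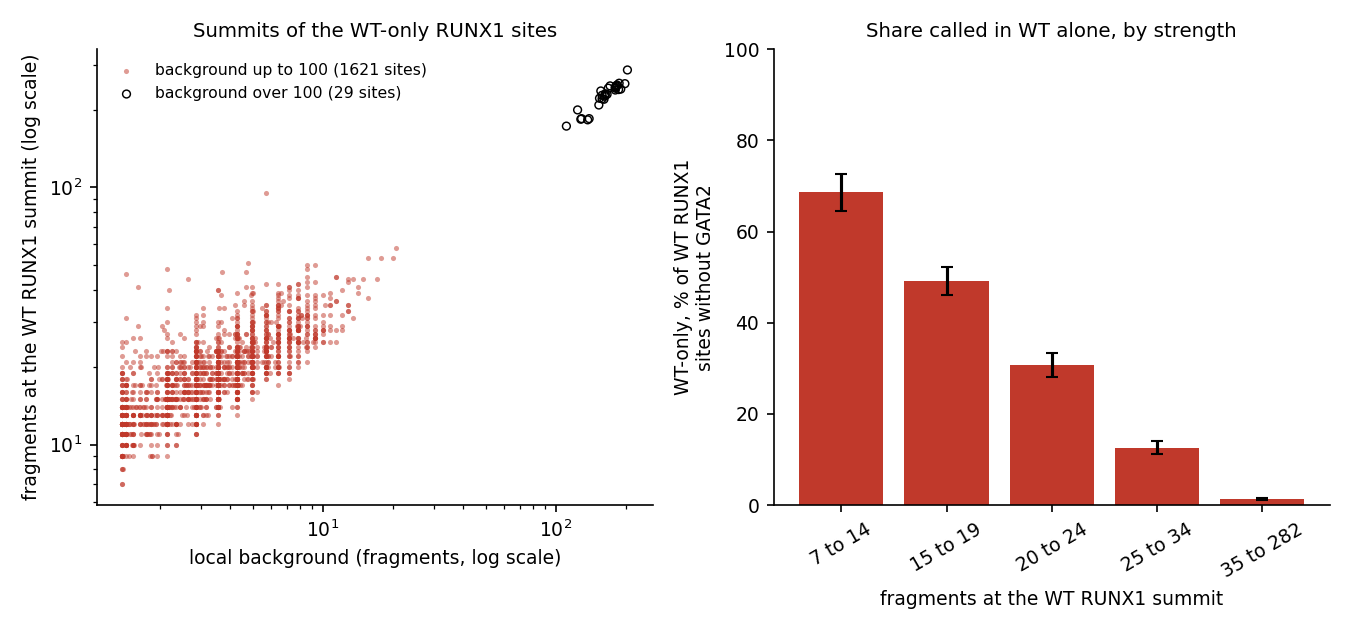
Left, each WT-only site by its local background and its fragments at the WT summit (both log axes), with the 29 sites of background over 100 as open circles. Right, WT-only sites as a percentage of all WT RUNX1 sites without GATA2, by fragments at the summit, with exact 95% intervals, from 68.7% in the weakest bin to 1.33% in the strongest.

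A KO peak would have been called at a median of 12 fragments (7 to 39) at the 1621 sites whose local background was at most 100 fragments. That figure takes the WT local background, scaled by 1.02 for the depth of the KO list, and the lowest −log10 p of that list, 3.62. The caller also asks for a minimum width, which was not modelled. The exact Poisson 95% interval of the WT fragments lay wholly above this need at 746 sites (46.0%) and reached down to it at 875. The WT fragments are values of the readout that chose the sites. The interval takes account neither of that choice nor of the counting error in KO. At 341 sites the WT number was at least 2 times the need, and at 32 sites it was at least 3 times. The KO fragment numbers below the calling threshold are not in the lists.

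Many of the sites had a KO RUNX1 peak nearby. The nearest was at a median of 4.29 kb, within 100 bp at 70 sites, within 1 kb at 417 (25.3%) and over 100 kb away at 65. A GATA2 peak of either genotype lay within 1 kb of 31.9% and within 10 kb of 83.6%, against 33.2% and 86.7% for sites of both genotypes. Just inside the rule stood Upf3b, whose 13-fragment site was 3 bp from the nearest other peak, and Numb (19 fragments) at 5 bp. Just outside stood sites at Ccnd3 (26 fragments), which shared 5 bp with another peak, and at Golim4 (16 fragments), which shared 7 bp.

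The sites stood at gene ends less often than RUNX1 sites without GATA2 of both genotypes or of KO cells alone. The share of the genome near gene ends was not computed. Gene ends here are the outer ends of each gene, so transcript starts inside a gene are not counted. A summit within 1 kb of either end of a protein-coding gene was present at 289 sites, or 17.5% (15.7 to 19.4). The share was 60.0% for sites of both genotypes and 37.1% for those of KO cells alone, but 4.84% for WT-only sites with GATA2 in both genotypes. Within genes lay 56.6%, and 27.2% (25.1 to 29.4) were over 5 kb from any gene, against 9.68% for both genotypes and 17.0% for KO cells alone. It was 34.5% for WT-only sites with GATA2 in both genotypes.

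Since the classes differ in strength, the shares were also taken within a band of 20 to 40 fragments. There 20.9% of 716 WT-only sites were at a gene end (18.0 to 24.1), against 47.6% of 3773 sites of both genotypes and 43.0% of 3347 sites of KO cells alone. It was 4.77% of 775 WT-only sites with GATA2 in both genotypes. In bins the share at gene ends was 12.5% at 7 to 14 fragments and 28.1% at 35 or more for the WT-only sites, against 19.0% and 69.9% for sites of both genotypes. The intervals overlapped in the weakest bin, 9.27 to 16.3 against 13.4 to 25.8, and not in the others. Sites are not replicates, and each class came from 1 library per genotype, so the intervals cover counting error only and no test was made.

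**Figure D2:**
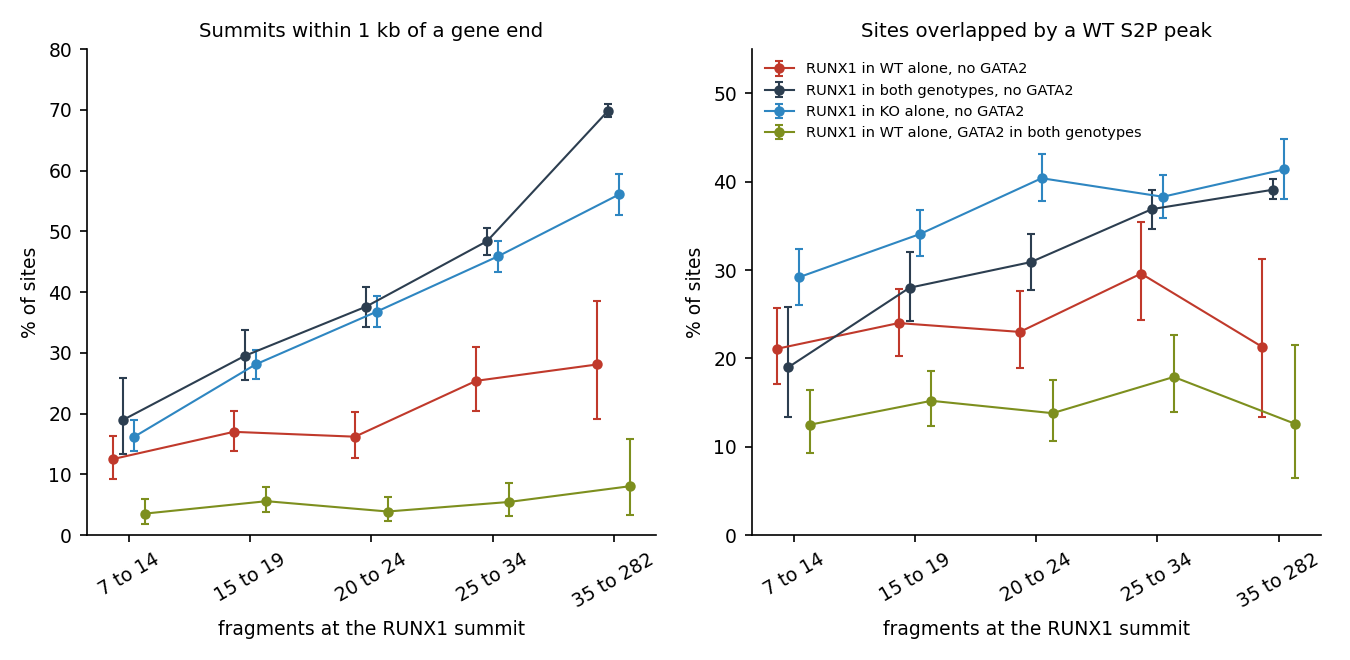
Share of sites (percent, exact 95% intervals) within 1 kb of a gene end (left) and under a WT S2P peak (right), by fragments at the RUNX1 summit, for 4 RUNX1 classes. At gene ends the WT-only sites without GATA2 lie at 12.5% to 28.1%, below the sites of both genotypes (19.0% to 69.9%) in each bin.

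The sites were spread over the genome. Among the 1621 sites of background up to 100, 1009 sites (62.2%) had no other WT-only site within 100 kb, 396 stood in pairs and 216 in 64 chains of 3 or more, the largest of 5. On chromosome 5 they were 9.95% of the WT RUNX1 sites without GATA2 (7.89 to 12.3), and they were 19.2% (14.9 to 24.3) on chromosome 18, against 13.8% over all chromosomes. The other autosomes and X lay between 11.2% and 17.0%, and Y held 1 site. Summits shared by both genotypes were higher in KO on chromosome 5, with a median log2 of KO over WT of 0.56 for RUNX1, against 0.19 for all chromosomes. For GATA2 it was 0.46 on chromosome 5, against 0.11 for all chromosomes. What sets chromosome 5 apart was not tested.

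**Figure D3:**
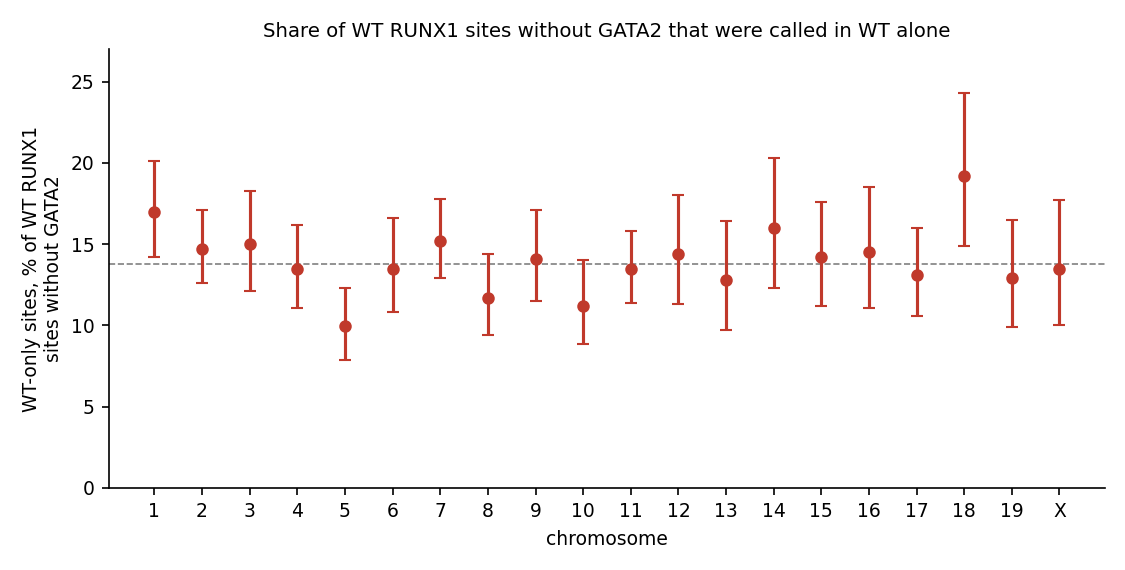
WT-only sites as a percentage of WT RUNX1 sites without GATA2 on each chromosome, with exact 95% intervals. Chromosome 5 is at 9.95% and chromosome 18 at 19.2%, with 13.8% over all.

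Each site was given the median log2 of KO over WT of the shared summits within 100 kb, its own summit within 1 kb left out. For RUNX1 the median of these site values was 0.17 at WT-only sites and 0.19 at sites of both genotypes. For GATA2 it was 0.08, against 0.12, and 33.1% of the WT-only sites had a neighbourhood median below 0, against 24.3%. At WT-only sites with GATA2 in both genotypes it was 0.16 for RUNX1 and 0.07 for GATA2. Without chromosome 5 the GATA2 medians were 0.07 at WT-only sites without GATA2 and 0.11 at sites of both genotypes. Taken over single shared summits, which is another measure, the median was 0.19 for RUNX1 and 0.11 for GATA2. These differences were not tested.

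A separate set of 29 sites had a local background above 100 fragments, from 111 to 203, while the next highest background of a site was 20.6. They held 173 to 286 fragments but a fold of only 1.27 to 1.61. Of these, 21 lay at chr9:3001161-3038057, 4 at chr14:19415854-19419355 and 4 elsewhere. The chromosome 9 block held 5 KO and 26 WT RUNX1 peaks, and the chromosome 14 block 0 KO and 4 WT. Neither block held a GATA2 or an S2P peak of either genotype. Without these 29 sites the share at gene ends was 17.8%, the share over 5 kb from a gene 25.9%, S2P lay on 22.2% in KO and 23.9% in WT, and the highest site had 95 fragments.

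The site of 95 fragments was in Lca5, which encodes a ciliary protein. No KO RUNX1 peak stood within 64963 bp. The WT peak at chr9:83441073-83441327 held 95 fragments (exact Poisson 95% interval 76.9 to 116), with a fold of 14.4 at a background of 5.68. For a call in KO, 16 fragments were needed there. The peak lay inside the gene, 1830 bp from the nearer end. Its window, printed above, holds a RUNX word near its 5′ end and 2 CCAAT words. The next sites by −log10 q among those within 5 kb of a named gene had fewer fragments but a higher fold. Dnah6, an axonemal dynein heavy chain, held 46 fragments in WT (19.4-fold), Gphn, the scaffold gephyrin, held 48 (15.6-fold), and Selenom, a selenoprotein, held 41 (16.1-fold). S2P coverage of Lca5 was 0.815% in KO and 0.887% in WT, that of Gphn was 5.43% in KO and 4.06% in WT, and Dnah6 and Selenom had none in either genotype.

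Fgf11, Gigyf2, Por and Peg3 had 51, 47, 50 and 47 fragments in WT. Por, the electron donor of microsomal cytochromes P450, had 8 KO and 5 WT RUNX1 peaks in all at the gene. Gigyf2, a translational repressor, had 1 KO and 2 WT peaks, and Fgf11, an intracellular member of the fibroblast growth factor family, had 2 KO and 4 WT. Nr3c2, the mineralocorticoid receptor, held a site of 34 fragments and had 0 KO and 2 WT RUNX1 peaks. Vcl, which links adhesions to actin, held 29 fragments and had 6 KO and 6 WT peaks, and Pim3, a serine/threonine kinase, held 34 and had 1 KO and 2 WT. Rgs6, a regulator of G protein signalling, held 40 and had 6 KO and 9 WT peaks. Each of these genes but Nr3c2 thus had a KO RUNX1 peak elsewhere. Cep83 (31 fragments), N4bp3 (40), Trappc3 (40), Macrod1 (38), Fam78a (41), Nynrin (39), Zfp638 (25), Pdcd7 (39) and a further site at Traf3ip3 (29) complete the strongest named sites away from gene ends. Sites over 5 kb from a gene or at a predicted gene were passed over in this ranking, whatever their strength. Pdcd7, a spliceosome component, had S2P over 5.79% of the gene in KO and 18.8% in WT.

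At gene ends the named sites were Pts (41 fragments), Zc2hc1c (39), Casp6 (36), Frmd5 (32), Fbxo40 (31), Traf3ip3 (29), Usp29 (27), Tmsb10 (26), Lgmn (26) and H2-T22 (45). Casp6 is an effector caspase, Lgmn a lysosomal endopeptidase and H2-T22 a nonclassical class I histocompatibility molecule. H2-T22, Lgmn, Tmsb10 and Fbxo40 had no KO RUNX1 peak at the gene, against 1 or more WT peaks. The printed H2-T22 window holds CCAAT on both strands, and that of Lgmn a RUNX word.

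The 1650 sites fell into 1201 at a protein-coding gene (in it or within 5 kb) and 449 farther away. These 1201 belonged to 1080 genes, which were 4.93% of all 21887 genes and 9.86% of the 10957 genes with a WT RUNX1 peak. A single site stood at 974 genes, 94 had 2 and 12 had 3 or more. A KO RUNX1 peak was still present at 951 genes (88.1%). Of these, 265 had more KO than WT RUNX1 peaks, 229 as many and 457 fewer. Each gene was taken for a WT peak without a KO peak, so fewer KO peaks are favoured by the choice. Nothing is read from this tally. The remaining 129 of the 1080 genes had no KO RUNX1 peak, and at 113 of them all WT peaks were WT-only sites without GATA2. Among all 10957 genes with a WT RUNX1 peak, 294 had no KO RUNX1 peak.

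The genes with 4 sites were Ctbp2, Mbnl1 and Rara. Ctbp2 encodes a transcriptional corepressor. S2P peaks covered 14.4% of the gene in KO and 53.2% in WT, and the window of 147 kb held 54 KO and 152 WT S2P peaks. RUNX1 had 1 KO peak and 5 WT peaks there, all 5 WT-only, with 13 to 28 fragments, and GATA2 had 3 KO and 6 WT peaks. Rara, the retinoic acid receptor alpha, had 12 KO and 13 WT RUNX1 peaks and 9 GATA2 peaks in each genotype, and 4 of its 13 WT peaks were WT-only. Mbnl1, a splicing regulator, had 30 KO and 25 WT RUNX1 peaks, with S2P over 93.2% of the gene in KO and 93.1% in WT.

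Peg3 and Usp29 are imprinted neighbours on chromosome 7. RUNX1 had 1 KO and 4 WT peaks in their window of 50.6 kb, 3 of them WT-only, with 23, 47 and 27 fragments, while GATA2 had 3 peaks in each genotype. Zeb2, a zinc finger repressor, had 18 KO and 15 WT RUNX1 peaks, and 3 sites of 11 to 22 fragments were WT-only. Trim47, a ubiquitin ligase, had 0 KO and 3 WT RUNX1 peaks of 21 to 29 fragments. At Med13l, a Mediator subunit on chromosome 5, S2P covered 58.7% in KO and 43.6% in WT with 12 KO and 11 WT RUNX1 peaks. The other genes with 3 sites were Aox2, with 3 KO and 5 WT RUNX1 peaks, the predicted gene Gm32742 with 0 KO and 3 WT, Gse1 with 23 KO and 24 WT, Ninj2 with 4 KO and 6 WT, Plekhm3 with 4 KO and 6 WT, and Traf4 with 6 in each genotype. Among these 12 genes, then, Gm32742 and Trim47 had no KO RUNX1 peak.

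**Figure D4:**
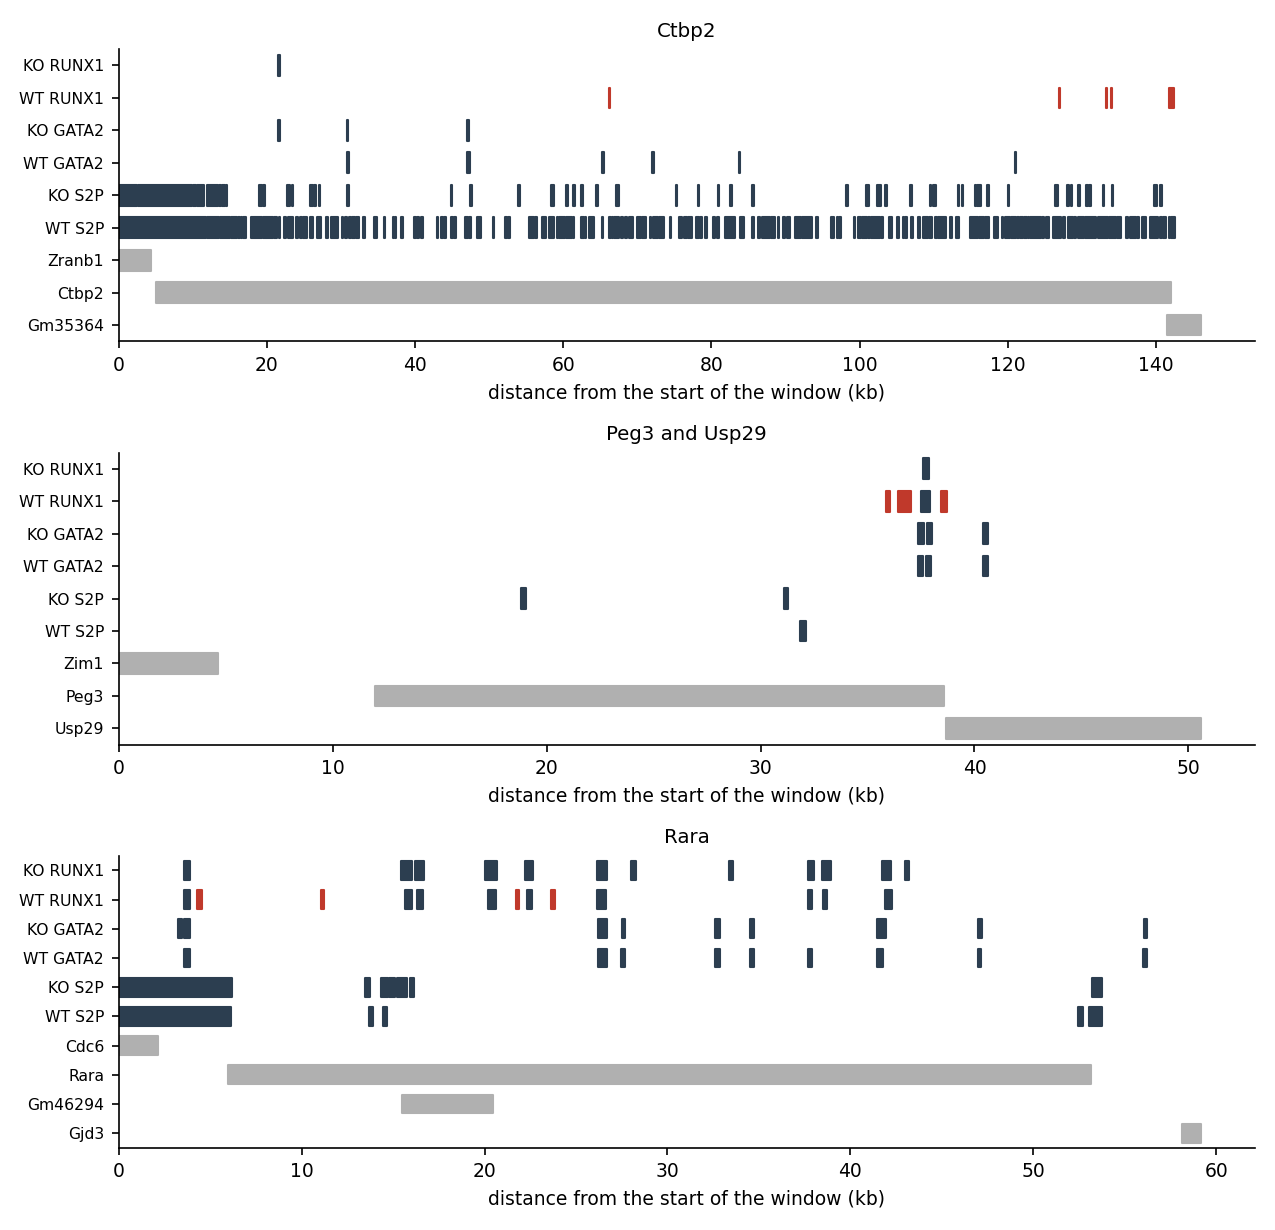
Peaks of the 6 lists along 3 loci (Ctbp2, Peg3 with Usp29, Rara), in kb from the left of each window, with the KO row above the WT row for each target and WT-only sites marked. Ctbp2 has 1 KO and 5 WT RUNX1 peaks and 54 KO and 152 WT S2P peaks.

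Elongating polymerase was measured independently of the choice. S2P peaks covered 21.8% of the sites in KO (19.8 to 23.9) and 23.5% in WT (21.5 to 25.6), against 36.0% in KO and 37.0% in WT for sites of both genotypes. At WT-only sites with GATA2 in both genotypes the share was lower still, 14.7% in KO and 14.7% in WT. S2P in 1 genotype alone was found at 37 sites in KO and 65 in WT, so that 63.7% of these 102 sites were of WT (53.6 to 73.0). The value was 55.9% (52.6 to 59.1) for sites of both genotypes, inside that interval, and 62.6% of 99 sites without those at Ctbp2. At the 323 sites with S2P in both genotypes the median fold was 4.74 in KO and 4.35 in WT, a median log2 of 0.11, and 0.11 too at sites of both genotypes. Within the band of 20 to 40 fragments the shares under S2P were 23.5% in KO and 25.8% in WT, against 34.1% in KO and 35.6% in WT for sites of both genotypes. They were 16.5% in KO and 15.9% in WT for WT-only sites with GATA2 in both genotypes.

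Over the 850 genes of at least 2 kb with S2P coverage and a WT-only site, the median share of the gene under S2P peaks was 24.2% in KO and 21.5% in WT. It was higher in KO too over all 9986 genes with S2P coverage, at 29.5% in KO and 27.1% in WT. Over the 8624 genes with a WT RUNX1 peak it was 32.8% in KO and 30.3% in WT. Coverage was lower in KO by 10 points or more at 21 genes, or 2.47% (1.54 to 3.75), against 3.91% of all 9986 genes. It was lower by as much at 4.04% of the 8624 genes with a WT RUNX1 peak. Among the 850 genes it was higher by 10 points or more at 40, or 4.71% (3.38 to 6.35). That compares with 5.76% of all genes and 5.88% of the 8624 genes with a WT RUNX1 peak. Coverage was higher in KO by any amount at 67.6% of the 850, against 61.0% of all genes. The share of genes with lower S2P coverage in KO was thus no larger among genes with a WT-only site than among all genes.

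Of the 129 genes without a KO RUNX1 peak, 44 had S2P coverage. Coverage was lower by 10 points or more at 2 of them (4.55%) and higher at 3 (6.82%), against 3.91% and 5.76% of all genes with S2P coverage. The lower genes were Rdh14, a retinol dehydrogenase, with 36.7% in KO and 53.7% in WT, and the predicted gene Gm35364 beside Ctbp2, with 0% in KO and 15.9% in WT. The higher genes were Glyctk, glycerate kinase, with 33.8% in KO and 12.8% in WT, Dld, the dihydrolipoamide dehydrogenase of mitochondria, with 48.8% in KO and 31.7% in WT, and the serpin Serpinb9e, with 84.0% in KO and 72.9% in WT. By any amount, coverage was higher in KO at 28 of the 44 genes (63.6%) and lower at 16 (36.4%). Over all genes with S2P coverage these shares were 61.0% and 37.2%. Smaller differences, lower in KO, were seen at Pnpt1, a mitochondrial exoribonuclease, with 33.0% in KO and 37.0% in WT. Tent2, a poly(A) polymerase, had 52.2% in KO and 54.8% in WT. Smaller differences, higher in KO, were seen at Zfp251, with 34.6% in KO and 24.8% in WT, and at H2-T22, with 55.6% in KO and 47.2% in WT. Cabyr had 83.8% in KO and 76.4% in WT, and Arhgap27 had 12.6% in KO and 5.92% in WT.

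**Figure D5:**
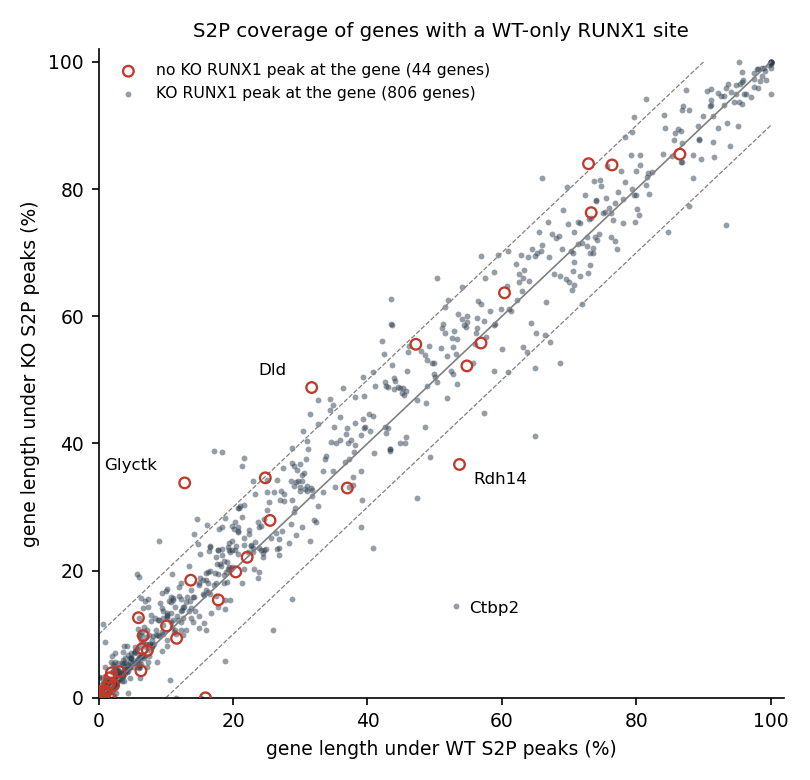
Share of each gene under S2P peaks in KO (vertical, percent) against WT (horizontal, percent) for the 850 genes with a WT-only site, with the 44 that hold no KO RUNX1 peak as open circles and dashed lines at 10 points either side of equality. The medians are 24.2% in KO and 21.5% in WT, against 29.5% in KO and 27.1% in WT over all genes with S2P coverage. Ctbp2 lies at 14.4% in KO and 53.2% in WT.

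Gene lists for the cell type, other blood lineages and housekeeping held a WT-only site at 25 of 248 genes (10.1%), and at 14.4% of the 174 with a WT RUNX1 peak, against 9.86% of all genes with a WT RUNX1 peak. The erythroid list had 2 of 55 genes with a site, Bcl11a, a repressor of fetal globin genes, and Tfrc, the transferrin receptor, which is 3.85% of its 52 genes with a WT RUNX1 peak. The whole erythroid list held 303 KO and 242 WT RUNX1 peaks. Bcl11a held 2 sites of 19 and 20 fragments among 21 KO and 16 WT RUNX1 peaks, with S2P over 89.0% in KO and 79.3% in WT.

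The RUNX and CHD families had 4 of 16 (Cbfa2t2, Chd2, Chd6 and Chd9), the cell cycle list 4 of 28 (Ccnd3, Cdk1, Cdk2 and Cdkn2c), the stem and progenitor list 4 of 33 (Angpt1, Erg, Ikzf2 and Lmo4) and the lymphoid list 4 of 28 (Gata3, Lck, Ptcra and Zbtb7b). The housekeeping list had 4 of 24 (Actb, Ldha, Sdha and Ywhaz). The share of all genes with a site was 4.93%. The mast cell list had 1 of 19 (Srgn), the megakaryocyte list 1 of 24 (Nbeal2) and the myeloid list 1 of 26 (Ncf1). Of the list genes with a WT RUNX1 peak, a site stood at 33.3% of 12 RUNX and CHD genes, 33.3% of 12 lymphoid, 21.1% of 19 stem and progenitor, 16.7% of 24 housekeeping, 14.8% of 27 cell cycle, 14.3% of 7 myeloid, 9.09% of 11 mast cell and 7.14% of 14 megakaryocyte genes, against 9.86% of all genes with such a peak. These shares rest on 1 to 4 genes a list and were not tested. Fragments at these sites ran from 11 at Lmo4, a LIM-only transcription cofactor, to 36 at Sdha, a subunit of succinate dehydrogenase. The RUNX and CHD list held 106 KO and 74 WT RUNX1 peaks in all, the cell cycle list 145 KO and 99 WT, the stem and progenitor list 206 KO and 156 WT, the lymphoid list 46 KO and 41 WT and the megakaryocyte list 41 KO and 42 WT. Over all lists there were 942 KO and 730 WT RUNX1 peaks, and the whole RUNX1 lists held 35281 KO and 28952 WT peaks, so the KO total was the higher one in the whole lists too.

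Cdk1, the mitotic kinase, held a site of 20 fragments and had 1 KO and 2 WT RUNX1 peaks, with S2P over 97.0% of the gene in KO and 98.4% in WT. Cdk2, a cyclin-dependent kinase of S phase, held 24 fragments and had 2 KO and 4 WT peaks, with S2P over 51.4% in KO and 58.9% in WT. Chd2, a remodeler of the same family as CHD7, held 20 fragments and had 8 KO and 6 WT peaks, with S2P over 93.0% in KO and 87.0% in WT. None of these passed the 10-point limit. Nbeal2, needed for platelet alpha granules, had 23.5% S2P coverage in KO and 40.8% in WT, with 3 KO and 4 WT RUNX1 peaks. Lck, the T cell kinase whose promoter window is printed above, had no S2P coverage in either genotype, and 3 KO and 4 WT RUNX1 peaks.

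As a check of the cell type, S2P peaks lay on 46 of 50 erythroid genes of at least 2 kb in KO and 47 in WT, with medians of 48.6% in KO and 48.1% in WT, and covered 83.3% of Klf1 in KO and 75.2% in WT. They lay on 2 of 21 myeloid genes in each genotype, 6 of 22 megakaryocyte genes in each, 6 of 27 lymphoid genes in KO and 5 in WT, 9 of 18 mast cell genes in each, with medians of 2.57% in KO and 6.06% in WT, and 17 of 33 stem and progenitor genes in each. Chd7 itself had no S2P coverage in KO or in WT, so these lists do not check its deletion.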

How the data were processed

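The series holds 14 ChIP-seq samples of G1ER cells, 8 of them immunoprecipitated. Bowtie2 2.2.1, MACS2 2.1.0 and build GRCm38 (mm10) are named per the submitters' processing notes, without their settings. The authors deposited 6 narrowPeak lists without headers. The deposited score is a multiple of −log10 q cut to a whole number. The authors' fold column is a ratio, the summit pileup over local background, with 1 added to each. The authors gave −log10 p and −log10 q as MACS2 writes them, with q up to 0.05. The last deposited column is the summit's offset from the peak start. The GATA2 and RUNX1 lists are of 1 library each. The S2P list of each genotype is labelled for both replicates, and how they were combined is not stated. The 2 S2P −log10 p columns were not used.

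Fragment numbers and local backgrounds were solved from fold and p, and came out whole at 100% of the summits in the 4 factor lists (tolerance 0.005 in −log10 p). The lists held 35281 KO and 28952 WT RUNX1 peaks, 80611 KO and 68199 WT GATA2 peaks, and 165206 KO and 163620 WT S2P peaks, over 123 Mb in KO and 115 Mb in WT. Library totals are not in the lists. The solving and merging steps were tested on simulated data. Peaks were joined into union sites by 1 bp of overlap, and sites were assigned to the nearest RefSeq protein-coding gene (GRCm38.p6) within 5 kb. No genome sequence was used, so words were searched only in RefSeq promoters (250 bases before to 50 after each listed start). Some of these starts lie inside a gene. The summits at Lca5 and Lck thus lie in a listed promoter but 1830 bp and 10071 bp from the nearer outer gene end. Such sites do not count as gene-end sites. With 1 list per factor and genotype no test between genotypes was possible. Intervals are exact Clopper-Pearson or Poisson intervals at 95%, which cover counting error only. An S2P difference was called at 10 points of gene coverage, and neighbourhoods reached 100 kb.

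Named are the 25 sites of highest −log10 q in or within 5 kb of a gene that is not a predicted one, and the 10 such sites at gene ends. Genes with 3 or more sites and sites at listed genes are named too. Of the 10 genes per direction with the largest S2P difference among those without a KO RUNX1 peak, only some are named. Adgrg5, Mfge8, Upf3b, Numb, Golim4 and Gm35364 were named after their values were seen. The sites and gene lists were chosen with earlier results of these data known. Alternatives covered peak extension, peak strength, distances, S2P limits and window size. Values without high-background sites or without Ctbp2, the neighbourhood medians without chromosome 5, and the CCAAT word were added after seeing the data. Python 3.11.15, numpy 2.4.6, pandas 2.3.3, scipy 1.17.1 and matplotlib 3.10.9 were used.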

Additional observations from a re-analysis of the deposited data

How the results depend on the processing

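Of 72 recomputed values of 9 results, 48 moved by less than the error or 1.5 times and 24 moved. Extending peaks by 200 bp gave 13.8% at gene ends, 30.4% over 5 kb from a gene, 9.31% in chains of 3 or more, S2P at 19.4% in KO and 20.6% in WT, and 16 listed genes, against 17.5%, 27.2%, 14.6%, 21.8%, 23.5% and 25 over all 1650 sites. The 14.6% in chains includes the sites of background over 100 and was 13.3% without them. Keeping WT RUNX1 peaks of −log10 q of 5 or more left 1078 of 1650 sites and 7.42% in chains. The share at gene ends was 11.7% within 0.5 kb, 25.6% within 2 kb and 20.9% at 20 to 40 fragments, where WT S2P was at 25.8%. A gene distance of 0 kb gave 43.4% outside genes and 16 listed genes, and 10 kb gave 21.6%. Chaining at 50 kb and 200 kb gave 7.09% and 25.8%. S2P within 1 kb was at 31.0% in KO and 31.5% in WT, and S2P peaks of −log10 q of 5 or more at 18.8% in KO and 19.5% in WT. Genes with lower S2P coverage in KO were 5.41% at 5 points and 0.235% at 20 points, against 2.47% at 10 points. The share of all genes with S2P coverage was taken at 10 points only, where it was 3.91%, so the other limits have no such share beside them. The RUNX word share was 27.7% with 100 bp on either side, against 18.0%. A changed distance or limit alters by construction what its share counts, and the cause of the other moves was not tested.

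No paired analysis was possible because each factor has 1 library per genotype and the S2P replicates are merged in 1 list per genotype, so leaving out a replicate was not possible either. The counting interval of the WT fragments reached the KO need at 875 of 1621 sites and lay above it at 746. These fragments are of the readout that chose the sites, so nothing on depth is read from them. The part of depth in the WT-only calls was not tested.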
